A study of Mus musculus with 2 samples.

Results

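Genes of the piRNA pathway were followed through the germ cells of the adult mouse testis. The group held 10 genes, which were picked by symbol as known parts of the pathway: Piwil1 and Piwil2, the Tudor domain genes Tdrd1, Tdrd5, Tdrd6, Tdrd7 and Tdrd9, and Mov10l1, Ddx4 and Mael. All 10 were found among the 50686 genes of the count matrix, and all 10 passed the filter on low counts. RNA of single cells was measured by droplet sequencing of transcript 3′ ends, with 1 library from each of 2 wild-type littermates of the strain C57Bl/6J Crl. Both mice were 8 weeks old, the tissue was whole testis, and no treatment or second genotype was part of the design. Each comparison was therefore made between groups of cells, with the mouse as the replicate. Levels are given as CPM, the UMIs (counted molecules) of a gene for every 1000000 UMIs summed over the cells of 1 cluster and mouse.

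PIWI-interacting RNAs are small RNAs of the germ line that are cut from long single-stranded precursor transcripts and loaded into PIWI proteins. In the mouse they guide the cleavage and the transcriptional silencing of transposons in fetal germ cells, and a very large set of them is made in pachytene spermatocytes. Tudor domain proteins bind methylated arginines of the PIWI proteins and help to build the germ granules in which helicases and nucleases process the precursors.

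In the matrix, 1237 cells with 27450497 UMIs came from mouse 1 and 1315 cells with 30302332 UMIs from mouse 2. The median cell had 17871 UMIs in the former and 19184 in the latter. Clustering without the 10 genes and without 21 other pathway genes gave 6 germ cell clusters large enough for a test. In the order of the cell ordering they were an early spermatocyte-like cluster of 164 cells, a pachytene or later spermatocyte-like cluster of 527 cells (pachytene-like below), an unnamed cluster of 688 cells led by Ssxb3, Ssxb1 and Ssxb2, a round spermatid-like cluster of 448 cells, and a larger and a smaller elongating or condensing spermatid-like cluster of 514 and 193 cells (condensing below). The early cluster carried 1181 CPM of Sycp1 and 1262 CPM of Sycp3, parts of the synaptonemal complex, but only 0.569 CPM of Prdm9 and 4.27 CPM of Dmc1, which mark the start of meiotic prophase. It also carried 1942 CPM of Hspa2, a pachytene marker, so it may hold pachytene spermatocytes. Which stage of prophase a change from it to the pachytene-like cluster marks was not tested. The pachytene-like cluster may hold later spermatocytes too, as its full name says. Its cells had a mean of 33958 and a median of 20773 UMIs, and its division into stages was not tested. The smaller condensing cluster came last in the ordering although it held more of the round spermatid marker Acrv1 (380 CPM) than the larger one (20.02 CPM) and less of the protamine Prm1 (29138 against 79757 CPM), so both were also compared with round spermatid-like cells. Spermatogonium-like, Sertoli-like and Leydig-like cells numbered 6, 7 and 5 and entered no test.

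The 10 genes showed 3 courses. Piwil1, Piwil2, Tdrd1, Tdrd5, Tdrd9 and Mov10l1 were highest in early spermatocyte-like cells in both mice and fell at the step to pachytene-like cells and again at the step to the Ssxb-led cluster. Tdrd6 and Tdrd7 rose from early spermatocyte-like to pachytene-like cells, and Tdrd7 rose further to the Ssxb-led cluster. Ddx4 and Mael passed at neither step in the main comparison. These courses are of CPM, a share of the UMIs counted, and UMIs per cell can run otherwise. Tdrd7 had a mean of 5.42 UMIs per pachytene-like cell (SD 0.46) and 5.73 per cell of the Ssxb-led cluster (SD 0.87).

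**Figure D1:**
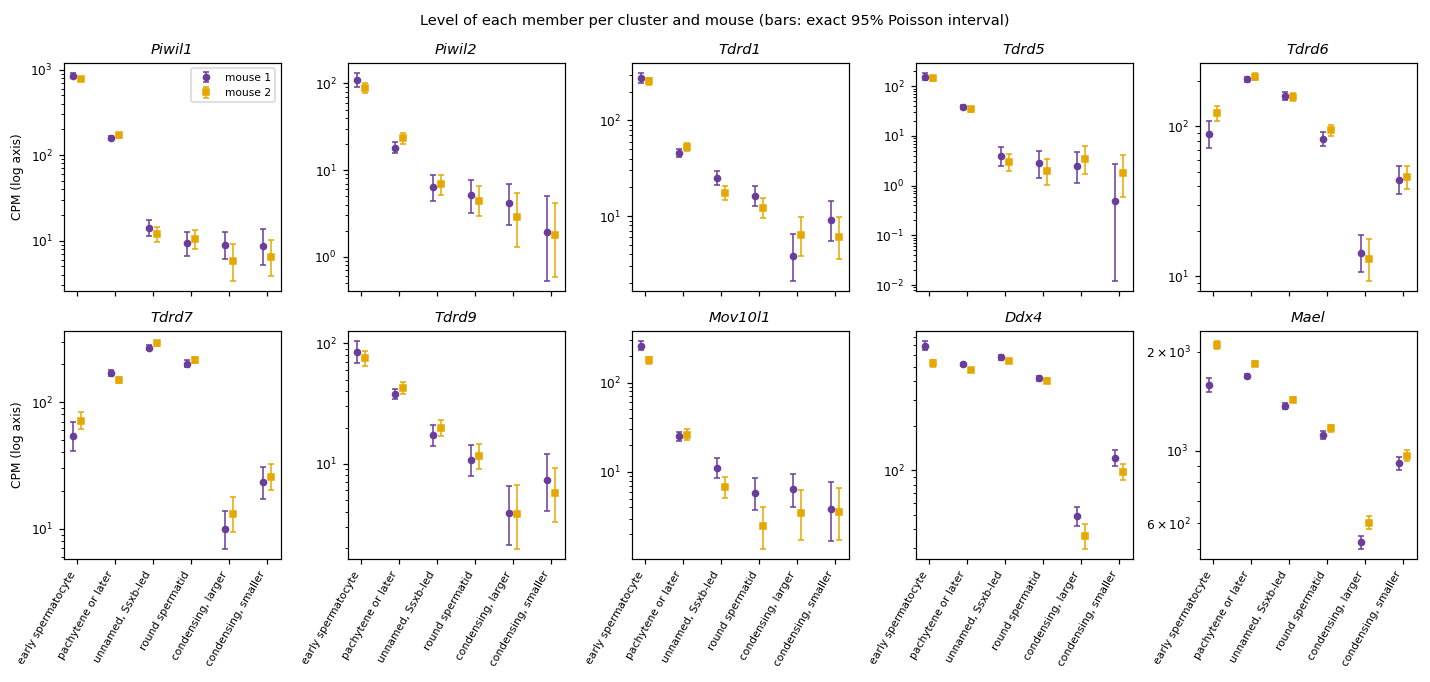
CPM of each of the 10 genes (log axis) in the 6 germ cell clusters in their order along the cell ordering, for mouse 1 (circles) and mouse 2 (squares), with exact 95% Poisson intervals, which cover counting error only. The gene Piwil1 fell from 846 and 777 CPM in early spermatocyte-like cells to 14.2 and 11.9 CPM in the Ssxb-led cluster, while Tdrd7 reached its highest levels there, 269 and 290 CPM, and Ddx4 stayed between 404 and 696 CPM up to round spermatid-like cells.

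Counts of calls were read against all rows of the table. From early spermatocyte-like to pachytene-like cells, 6 of the 10 genes were lower and 2 higher at an adjusted p under 0.05 (edgeR), where 24.5% of the 14143 rows tested were lower and 25.5% higher. Their median log2 fold change was -1.25, beside 0 for all rows. From pachytene-like cells to the Ssxb-led cluster, 7 were lower and 1 higher, beside 30.6% and 31.8% of all rows, with a median of -1.11 against -0.03. From the Ssxb-led cluster to round spermatid-like cells, 3 were lower and 0 higher, beside 20% and 25.7% of all rows, with a median of -0.26 against -0.06. With library size alone 6 were lower, with a median of -0.51 against -0.30, and with DESeq2 1 was lower. Shares of all rows called at this step under these settings are not given here.

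The steps into and between the condensing clusters depended on the scaling too. From round spermatid-like cells to the larger condensing cluster, 3 genes were higher and 3 lower, beside 26.5% and 31.8% of all rows. When the library size alone was used in place of the TMM factors, which ran from 1.65 in the early cluster of mouse 1 to 0.487 in the larger condensing cluster of mouse 2, the counts were 0 higher and 6 lower, beside 12.9% and 55.5% of all rows. The median of all rows was -0.18 on the log2 scale with TMM and -1.26 with library size alone at this step, and 0.00 and 0.60 from the larger to the smaller condensing cluster. At the latter step 2 genes were higher and 2 lower, beside 23.5% and 16.2% of all rows, and with library size alone 4 were higher and 0 lower, beside 36.9% and 6.04%. From round spermatid-like cells straight to the smaller condensing cluster, 3 were lower and 0 higher, beside 20.5% and 23.3% of all rows. At the 3 earlier steps library size alone moved the median of all rows to -0.24, -0.09 and -0.30. Fold changes tested with edgeR are with TMM scaling unless a setting is named. They can differ from the ratios of the CPM beside them.

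**Figure D2:**
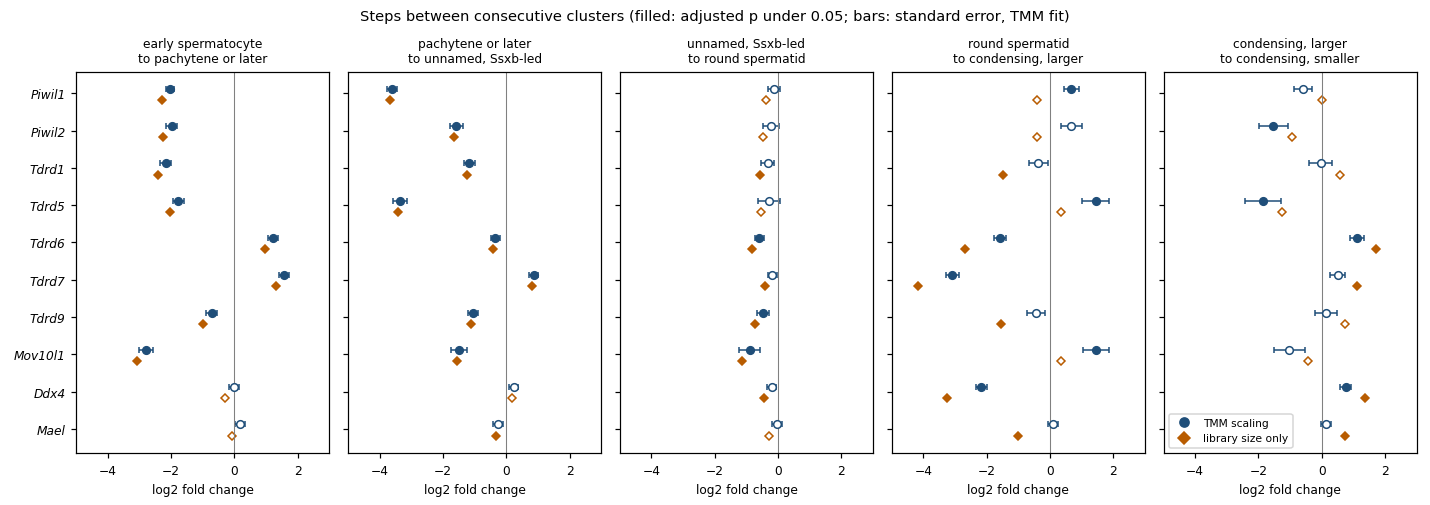
Log2 fold change of each gene at the 5 steps between consecutive clusters, the cluster later in the cell ordering over the one before it. Circles show TMM scaling and diamonds library size alone. Bars show the standard error (SE in the text), derived from the edgeR test with the spread estimated over all 12 sums. Filled symbols passed an adjusted p under 0.05 (edgeR). The scalings lay close together at the first 2 steps, and at the step to the larger condensing cluster Piwil1 lay at 0.67 with TMM and at -0.43 with library size alone.

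Piwil1 encodes MIWI, a PIWI protein that binds pachytene piRNAs. The gene (ENSMUSG00000029423) lies on the plus strand at chr5:128702524-128755474 of GRCm38. Its level in early spermatocyte-like cells was 846 CPM in mouse 1 and 777 CPM in mouse 2, or 17.4 and 16.95 UMIs per cell. In pachytene-like cells it was 160 and 170 CPM, and in the Ssxb-led cluster 14.2 and 11.9 CPM. Each cluster lay below the one before it in both mice, with no overlap. The first step was a 4.10-fold decrease (log2 fold change -2.03, SE 0.14, edgeR adjusted p 9.61e-11) and the next a 12.2-fold decrease (-3.61, SE 0.16, edgeR adjusted p 1.60e-14). From there on the level stayed low, between 5.73 and 10.4 CPM in round spermatid-like and condensing cells. A UMI of Piwil1 was found in 97.6% of early spermatocyte-like cells, 84.3% of pachytene-like cells and 21.7% of cells of the Ssxb-led cluster. When each cell was thinned to 5000 UMIs, these shares were 93.3%, 43.3% and 6.10%. The early and pachytene-like clusters together gave nearly all of its 6119 UMIs, 45.9% and 47.9%.

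Piwil2 encodes MILI, which acts from fetal germ cells on and makes the cuts that feed piRNA amplification. The gene (ENSMUSG00000033644) lies on the minus strand at chr14:70372477-70429383. It was at 109 and 89.6 CPM in early spermatocyte-like cells of mouse 1 and mouse 2, at 18.2 and 23.3 CPM in pachytene-like cells and at 6.31 and 6.84 CPM in the Ssxb-led cluster. The decreases were 3.96-fold (edgeR adjusted p 6.39e-09) and 2.98-fold (edgeR adjusted p 5.31e-07), the latter beside 12.2-fold for Piwil1, and the difference between the genes was not tested. In round spermatid-like cells 22 and 27 UMIs remained, or 5.13 and 4.46 CPM. The 6 spermatogonium-like cells, a stage in which MILI is known to act, gave 0 UMIs of Piwil1 and of Piwil2. In these few cells the limit of 3 counts stands at 45.9 CPM, so lower levels could not be seen.

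Tdrd1 encodes a scaffold with several Tudor domains that binds MILI in the cement between mitochondria. The gene (ENSMUSG00000025081) lies on the plus strand at chr19:56826209-56870012. It reached 276 and 255 CPM in early spermatocyte-like cells of mouse 1 and mouse 2, 45.8 and 52.9 CPM in pachytene-like cells, and 24.9 and 17.5 CPM in the Ssxb-led cluster. The levels did not overlap between these clusters. The decreases were 4.49-fold (log2 fold change -2.17, SE 0.17, edgeR adjusted p 1.06e-09) and 2.25-fold (edgeR adjusted p 7.60e-06). In cells thinned to 5000 UMIs its mean level in the early cluster was 305 CPM, against 265 CPM at full depth.

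Tdrd5 encodes a Tudor and LOTUS domain protein of the chromatoid body that is needed for pachytene piRNA production. The gene (ENSMUSG00000060985) lies on the minus strand at chr1:156255296-156303664. Its levels in mouse 1 and mouse 2 were 156 and 143 CPM in early spermatocyte-like cells, 38.3 and 34.3 CPM in pachytene-like cells and 3.93 and 3.0 CPM in the Ssxb-led cluster. The decrease at the first step was 3.41-fold (edgeR adjusted p 2.05e-08) and that at the next 10.2-fold (log2 fold change -3.35, SE 0.22, edgeR adjusted p 1.28e-11). The antisense gene 4930518J20Rik overlaps Tdrd5 and had another course, with 77.0 and 107 CPM in early spermatocyte-like cells and 331 and 339 CPM in pachytene-like cells. The paper reports reads antisense to exons apart from exonic reads, so the strand of reads was known. Whether any reads of this pair were shared was not tested. A430050A11Rik overlaps Tdrd5 on the same strand and had 21 UMIs.

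Tdrd9 encodes a helicase with a Tudor domain that takes part in transposon silencing with the PIWI protein MIWI2. The gene (ENSMUSG00000054003) lies on the plus strand at chr12:111971559-112068854. It showed the shallowest decline of these 6 genes. Its levels were 85.2 and 75.6 CPM in early spermatocyte-like cells, 37.9 and 42.9 CPM in pachytene-like cells, 17.2 and 19.8 CPM in the Ssxb-led cluster and 10.7 and 11.6 CPM in round spermatid-like cells of mouse 1 and mouse 2. The levels of the 4 clusters did not overlap. All 3 decreases passed the test, by 1.65-fold (edgeR adjusted p 0.000653), 2.07-fold (edgeR adjusted p 5.58e-06) and 1.40-fold (edgeR adjusted p 0.0362). The first was lost without the filter on low counts (edgeR adjusted p 0.0556) and with clusters built on the 2000 most variable genes (edgeR adjusted p 0.0578), and the last was lost under 8 alternatives, with adjusted p from 0.0527 to 0.422.

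Mov10l1 encodes the RNA helicase that feeds precursor transcripts into piRNA processing. The gene (ENSMUSG00000015365) lies on the plus strand at chr15:88982909-89055152. It stood at 258 CPM in early spermatocyte-like cells of mouse 1 and at 177 CPM in those of mouse 2. In pachytene-like cells the levels were 24.996 and 26.2 CPM, a 6.95-fold decrease (log2 fold change -2.80, SE 0.22, edgeR adjusted p 6.92e-10), which was the largest of the 10 genes at this step under TMM and under library size alone. In the Ssxb-led cluster they were 11.1 and 6.72 CPM (edgeR adjusted p 1.55e-05), and in round spermatid-like cells 5.83 and 2.48 CPM (edgeR adjusted p 0.0334, lost with DESeq2 at 0.103 and with its size factors in edgeR at 0.0736). Among values resting on at least 100 UMIs, Mov10l1 was also the gene of the 10 that differed most between the mice. These ratios were taken of CPM + 1. Mouse 2 had 0.685 times the level of mouse 1 in early spermatocyte-like cells, where 10.05% of 4888 rows had a ratio at least as far from 1. In the Ssxb-led cluster it had 0.638 times the level (0.606 in plain CPM), where 2.56% of 7971 rows did. With 1 animal each there is no test of this difference. The rows compared had at least 100 UMIs and were not matched to Mov10l1 by count. Rows with more UMIs carry less counting error, so these shares do not measure how unusual the ratio is at this level. All 6 spermatogonium-like cells had a UMI of Mov10l1, and its level in them was 233 and 205 CPM over 5 and 9 UMIs.

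At the step from round spermatid-like cells to the larger condensing cluster, Piwil1, Tdrd5 and Mov10l1 were called higher with TMM scaling, by 0.67, 1.44 and 1.45 on the log2 scale (edgeR adjusted p 0.0220, 0.00562 and 0.00532). The counts behind these calls were small: 32 and 18 UMIs of Piwil1, 9 and 11 of Tdrd5 and 23 and 11 of Mov10l1 in the larger condensing cluster of mouse 1 and mouse 2. In CPM Piwil1 was 9.33 and 10.4 before the step and 8.88 and 5.73 after it. With library size alone Piwil1 turned to -0.43, and Tdrd5 and Mov10l1 lay at 0.35 with adjusted p of 0.480 and 0.502 (edgeR). In cells thinned to 5000 UMIs the calls of Piwil1 and Tdrd5 were lost (edgeR adjusted p 0.110 and 0.892), as they were without the filter on low counts (0.530 and 0.0576), and Piwil1 also missed with clusters from the 2000 most variable genes (0.0503). Without mouse 2 and without mouse 1, with no test, Piwil1 lay at 1.02 and 0.25, and without mouse 2 Tdrd5 lay at 0.92. From the larger to the smaller condensing cluster Tdrd5 and Piwil2 were lower by 1.85 and 1.53 on the log2 scale (edgeR adjusted p 0.0111 and 0.0123), over 1 and 5 UMIs of Tdrd5 and 4 and 5 UMIs of Piwil2 in the smaller cluster. Library size alone left both under 0 without a call (edgeR adjusted p 0.0933 and 0.156), and so did thinned cells (0.103 and 0.0809). Without mouse 2, with no test, Tdrd5 lay at -2.95 at this step. Mov10l1 passed at this step only in the fit with the mouse as a block (edgeR adjusted p 0.0492), with DESeq2 (0.0442) and without the filter (edgeR adjusted p 0.0305), against 0.102 in the main comparison.

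The level of droplet background could not be set from a cell type that lacks these genes, since such cells were few. The 5 Leydig-like cells, with a median of 9856 UMIs, gave 0 UMIs of Piwil1, Piwil2, Tdrd1, Tdrd5, Tdrd6 and Mov10l1. The limit of 3 counts stands at 59.2 CPM in them, so lower levels could not be seen. The 7 Sertoli-like cells, with a median of 12039 UMIs, carried 8 UMIs of Piwil1 and 12 of Ddx4, beside 21 UMIs of Sycp1 and 215 of Prm1, which are germ cell genes. UMIs of the 6 declining genes in spermatids were thus not told apart from free RNA.

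Stretches upstream of the transcription start are shown for 4 of the genes, 3 of the declining group and Mael, so that the sequence can be read beside their courses. RefSeq start sites of GRCm38.p6 were listed for 8 of the 10 genes, not for Piwil2 and Tdrd6. A pair of short motifs was searched in the 250 bases before each start, on both strands: TAACNG, the core bound by MYB proteins such as A-MYB (CNGTTA on the other strand), and CACGTG, an E-box, which is its own reverse complement. These motifs were picked after the windows had been read, so the counts that follow are no test of enrichment. The motifs do not overlap each other in the stretches shown. TAACNG was found for 4 of the 8 genes (Piwil1, Tdrd5, Tdrd7 and Mov10l1) and for 22.3% of 27025 genes with such a window. CACGTG was found for 6 of the 8 (Piwil1, Tdrd1, Tdrd9, Mov10l1, Ddx4 and Mael) and for 6.86% of all genes. These counts used whole windows with their exon bases, which made up all 250 bases for Tdrd5. In the stretches, capitals mark the matches, and bases inside annotated exons are left out. The stretch of Piwil1 (chr5:128736030-128736173, plus strand) lies in an intron of the longest annotated gene interval, before an inner start. Those of Mov10l1 (chr15:88982744-88982908, plus strand), Tdrd9 (chr12:111971309-111971558, plus strand) and Mael (chr1:166238748-166238994, minus strand) end at the base before the gene.
Piwil1: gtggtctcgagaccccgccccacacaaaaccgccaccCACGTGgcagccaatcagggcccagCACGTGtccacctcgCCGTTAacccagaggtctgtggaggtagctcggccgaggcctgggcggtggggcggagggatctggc
Mov10l1: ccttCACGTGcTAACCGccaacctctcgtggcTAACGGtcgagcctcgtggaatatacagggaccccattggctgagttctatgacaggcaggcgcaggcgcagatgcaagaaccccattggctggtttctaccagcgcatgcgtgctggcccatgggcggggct
Tdrd9: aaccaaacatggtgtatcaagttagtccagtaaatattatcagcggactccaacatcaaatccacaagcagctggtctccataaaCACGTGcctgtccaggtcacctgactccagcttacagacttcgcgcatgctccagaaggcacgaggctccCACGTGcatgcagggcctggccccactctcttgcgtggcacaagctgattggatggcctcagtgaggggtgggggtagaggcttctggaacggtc
Mael: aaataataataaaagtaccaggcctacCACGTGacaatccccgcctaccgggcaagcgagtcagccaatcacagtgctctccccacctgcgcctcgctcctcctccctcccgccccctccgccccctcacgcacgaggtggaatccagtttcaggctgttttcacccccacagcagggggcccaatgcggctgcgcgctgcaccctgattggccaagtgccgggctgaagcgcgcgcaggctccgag
Piwil1 and Mov10l1, both of the declining group, held both motifs. The window of Mael held a CACGTG as well. In the main comparison Mael passed neither at the step to pachytene-like cells nor at that to the Ssxb-led cluster. A match describes the letters only, and binding was not measured.

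Tdrd6 encodes a large Tudor protein of the chromatoid body. The gene (ENSMUSG00000040140) lies on the minus strand at chr17:43615335-43630299. In mouse 1 and mouse 2 it was at 88.9 and 122 CPM in early spermatocyte-like cells and at 206 and 215 CPM in pachytene-like cells, a 2.32-fold increase (log2 fold change 1.22, SE 0.16, edgeR adjusted p 1.32e-06). It then stood at 160 and 157 CPM in the Ssxb-led cluster and at 82.8 and 94.3 CPM in round spermatid-like cells. Levels rose and then fell, with no overlap between neighbouring clusters. The decline to the Ssxb-led cluster (1.27-fold, edgeR adjusted p 0.0447) was lost under 5 alternatives, with adjusted p from 0.0513 to 0.110, whereas that to round spermatid-like cells was 1.51-fold (edgeR adjusted p 0.00244). In the larger condensing cluster 14.4 and 13.1 CPM were left, 2.998-fold lower (edgeR adjusted p 2.51e-07). The smaller one held 44.2 and 46.1 CPM, which was 1.38-fold below round spermatid-like cells (edgeR adjusted p 0.0299) and 2.166-fold above the larger cluster (edgeR adjusted p 0.000168). These folds in condensing cells are with TMM scaling and are smaller than the ratios of the CPM. With library size alone the smaller cluster lay 0.97 on the log2 scale below round spermatid-like cells (edgeR adjusted p 2.73e-05). It then lay 1.71 above the larger one (edgeR adjusted p 4.68e-07).

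Tdrd7 encodes a Tudor and LOTUS domain protein that shapes the chromatoid body and takes part in retrotransposon silencing after meiosis. The gene (ENSMUSG00000035517) lies on the plus strand at chr4:45965334-46034761. Its levels in mouse 1 and mouse 2 were 54.1 and 71.4 CPM in early spermatocyte-like cells, 169 and 150 CPM in pachytene-like cells, 269 and 290 CPM in the Ssxb-led cluster and 201 and 215 CPM in round spermatid-like cells. Early spermatocyte-like cells were lowest of these 4 and the Ssxb-led cluster highest, with no overlap. The rises were 2.95-fold (log2 fold change 1.56, SE 0.17, edgeR adjusted p 1.01e-07) and 1.82-fold (0.87, SE 0.15, edgeR adjusted p 2.66e-05). Means in UMIs per cell were 1.34, 5.42 and 5.73 in early spermatocyte-like, pachytene-like and Ssxb-led cells. The difference between the Ssxb-led and the round spermatid-like cells did not pass (log2 fold change -0.18, edgeR adjusted p 0.352), although it did with library size alone (-0.43, edgeR adjusted p 0.00931) and with clusters from the 2000 most variable genes (-0.41, edgeR adjusted p 0.0431). Condensing cells held little of it: 9.99 and 13.1 CPM in the larger cluster, an 8.45-fold decrease (edgeR adjusted p 7.23e-12), and 23.3 and 25.7 CPM in the smaller one, 5.95-fold below round spermatid-like cells (edgeR adjusted p 9.98e-11). Both of these folds are with TMM scaling and are smaller than the ratios of the CPM.

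Ddx4 encodes the mouse VASA homologue, a DEAD-box RNA helicase used as a general marker of germ cells. The gene (ENSMUSG00000021758) lies on the minus strand at chr13:112598333-112652475. It was at 696 and 530 CPM in early spermatocyte-like cells, 523 and 476 CPM in pachytene-like cells, 582 and 547 CPM in the Ssxb-led cluster and 419 and 404 CPM in round spermatid-like cells of mouse 1 and mouse 2. A UMI was found in each cell of these 4 clusters. Mouse 1 was above mouse 2 in each of them. The early and the Ssxb-led values overlapped, with the pachytene-like values below both. No step up to round spermatid-like cells passed the test in the main comparison. The rise to the Ssxb-led cluster (log2 fold change 0.24) had an adjusted p of 0.158 and, with the mouse as a block, of 0.0373 (edgeR), and the change to round spermatid-like cells (-0.21, adjusted p 0.258) was called with library size alone (-0.46, edgeR adjusted p 0.0137). Mean UMIs of Ddx4 per cell did not rise to the Ssxb-led cluster, with 16.96 in pachytene-like cells and 11.5 in that cluster. The larger condensing cluster stood apart at 49.1 and 36.0 CPM, a 4.49-fold decrease (log2 fold change -2.17, SE 0.16, edgeR adjusted p 1.05e-10). The smaller one held 122 and 97.5 CPM, 2.66-fold below round spermatid-like cells (edgeR adjusted p 8.99e-08). It was 1.69-fold above the larger one (edgeR adjusted p 0.00102), a call lost in thinned cells (edgeR adjusted p 0.296). These folds in condensing cells are with TMM scaling and are smaller than the ratios of the CPM. With library size alone, round spermatid-like cells lay 1.91 on the log2 scale above the smaller cluster (edgeR adjusted p 1.24e-08). The smaller cluster then lay 1.36 above the larger one (edgeR adjusted p 3.63e-06).

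Mael encodes Maelstrom, a protein of the nuage that takes part in piRNA biogenesis and transposon silencing. The gene (ENSMUSG00000040629) lies on the minus strand at chr1:166201201-166238747. It gave 78347 UMIs and was detected in 2513 of the 2552 cells. In mouse 1 and mouse 2 its levels were 1588 and 2096 CPM in early spermatocyte-like cells, 1687 and 1838 CPM in pachytene-like cells, 1368 and 1431 CPM in the Ssxb-led cluster and 1114 and 1168 CPM in round spermatid-like cells. The early and pachytene-like values overlapped, and the later clusters lay below them one by one in CPM. None of these steps passed in the main comparison. The first (log2 fold change 0.19, edgeR adjusted p 0.358) was called higher without the filter on low counts (0.41, edgeR adjusted p 0.0337) and with clusters from the 2000 most variable genes (0.89, edgeR adjusted p 0.000144), and it lay below 0 with other scalings. The step to the Ssxb-led cluster (log2 fold change -0.27) had an adjusted p of 0.146 and was called with the mouse as a block (edgeR adjusted p 0.0315), with library size alone (edgeR adjusted p 0.0347) and without doublets (-0.46, edgeR adjusted p 0.0260). In the larger condensing cluster the level was 526 and 603 CPM and in the smaller one 916 and 965 CPM. Against round spermatid-like cells the larger cluster differed by 0.09 on the log2 scale with TMM (edgeR adjusted p 0.668) and by -1.02 with library size alone (edgeR adjusted p 1.94e-06). It differed by 0.35 with DESeq2 (adjusted p 0.0327) and by -0.27 without the filter (edgeR adjusted p 0.218), so no direction is given for this step. Mael was the gene of the group that late cells kept most of in CPM.

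**Figure D3:**
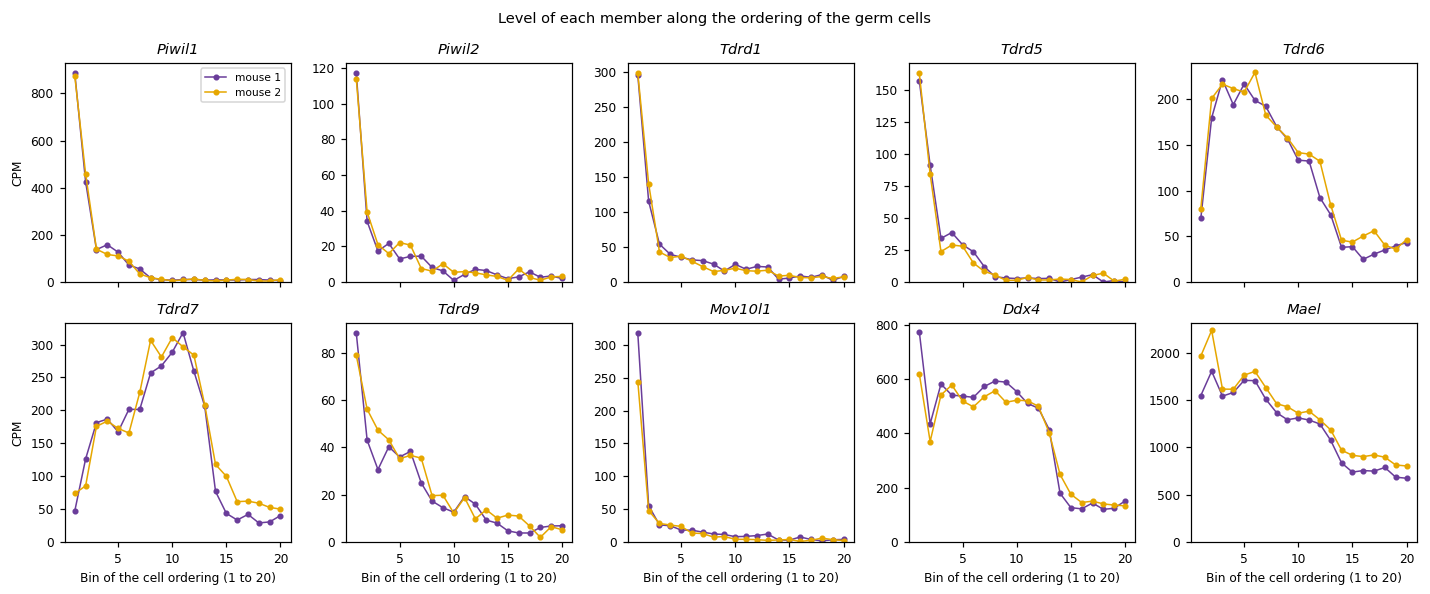
CPM of each gene in 20 bins of the germ cells along the ordering, from early spermatocyte-like cells (bin 1) to condensing spermatid-like cells (bin 20), for mouse 1 (purple) and mouse 2 (yellow). The level of Piwil1 was 885 and 873 CPM in bin 1, Mael peaked in bin 2 at 1806 and 2238 CPM, and Tdrd7 peaked in bins 11 and 10 at 318 and 311 CPM.

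The ordering placed the peaks in finer steps. Piwil1, Piwil2, Tdrd1, Tdrd5, Tdrd9, Mov10l1 and Ddx4 were highest in the first of 20 bins in both mice, where all cells belonged to the early cluster. Mael was highest in bin 2, at 1806 and 2238 CPM, where the pachytene-like cluster began. Tdrd6 was highest in bin 3 of mouse 1 (221 CPM) and in bin 6 of mouse 2 (229 CPM), and Tdrd7 in bin 11 of mouse 1 (318 CPM) and bin 10 of mouse 2 (311 CPM), among cells that belonged mostly to the Ssxb-led cluster. In order of their peaks the genes thus ran from Piwil1 and its group to Mael, Tdrd6 and Tdrd7 in both mice.

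Over the 12 sums (6 clusters in each of 2 mice), the 6 declining genes were correlated with each other at r of 0.893 to 0.981 on the log2(CPM + 1) scale. Tdrd7 was correlated at 0.885 with Tdrd6 and at 0.870 with Ddx4, but at 0.121 with Mov10l1 and at 0.194 with Piwil1. Mael was closest to Tdrd6 (0.929) and Tdrd9 (0.915). These values describe the courses, since the sums of 1 mouse share a library.

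The genes whose course was most like that of each member were taken from 7986 rows by the same measure. They were 1700006A11Rik, Gm21269 and 4933435G04Rik for Piwil1 (0.994 to 0.997), Rab18, Chd3 and Pcgf5 for Piwil2 (0.994 to 0.995) and Tmem126a, Atp5g3 and Ola1 for Tdrd1 (0.992 to 0.995). For Tdrd5 they were Zcchc10, Nsfl1c and BC049730 (0.993 to 0.995), for Tdrd9 Wipi2, Fam98b and Psmd4 (0.994 to 0.995), and for Mov10l1 Prmt1, Ly6k and Rab24 (0.986 for each). For Tdrd6 they were Ldhal6b, Hadha and Wdr12 (0.994 to 0.999), for Tdrd7 Lin7c, Kif9 and 4930550C14Rik (0.982 to 0.986), for Ddx4 Cox7b2, Mrps14 and Thoc1 (0.994 to 0.997), and for Mael Tspan13, Phf10 and Gm42914 (0.989 to 0.991). No member was among the genes most like another.

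When the 6 clusters were put in order of CPM for each gene, 25 of the 50 neighbouring pairs differed at an adjusted p under 0.05 (edgeR). Over the 15 pairs of clusters, 39.7% to 80.2% of all rows were called. Those pairs were not sorted by the level of each row and include distant clusters, so the shares are not alike. In 1 of the 25, Tdrd5 in the Ssxb-led cluster over the larger condensing one, the called difference ran against the order in CPM (log2 fold change -1.14, edgeR adjusted p 0.0127), and library size alone gave no call (edgeR adjusted p 0.648). In 12 of the 50 pairs TMM scaling turned the order that CPM gave. For Tdrd7 the order was the Ssxb-led cluster, then round spermatid-like, pachytene-like, early, smaller condensing and larger condensing cells. The first and the last 2 of its neighbouring pairs did not pass with TMM. With library size alone these pairs passed (edgeR adjusted p 0.00931, 1.32e-06 and 0.000285). For Ddx4 no neighbours among the 4 highest clusters differed, and for Mael none of the 5 pairs did with TMM. With library size alone, Mael was higher in pachytene-like than in Ssxb-led cells (log2 fold change 0.33, edgeR adjusted p 0.0347). It was also higher in the smaller than in the larger condensing cluster (0.74, edgeR adjusted p 0.000173).

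Other genes of the pathway were counted from a list of 21, of which 19 passed the filter on low counts. Piwil4, the nuclear PIWI protein MIWI2 of fetal germ cells, had 2 UMIs in all cells and Btbd18, a regulator of piRNA loci, 14. From early spermatocyte-like to pachytene-like cells 2 were higher and 12 lower, from there to the Ssxb-led cluster 6 were higher and 11 lower, and to round spermatid-like cells 3 were higher and 8 lower (edgeR). The shares of all rows called at these steps are those given above for the 10 genes. From round spermatid-like to larger condensing cells 2 were higher and 6 lower, beside 26.5% and 31.8% of all rows, and from the larger to the smaller condensing cluster 4 were higher and 2 lower, beside 23.5% and 16.2%. With library size alone the counts at the step to the larger condensing cluster were 0 and 12, beside 12.9% and 55.5%.

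Of 7 genes for precursor processing and end formation, 5 were lower and 1 higher at the first step, beside 24.5% and 25.5% of all rows, and 6 were lower and 1 higher at the next, beside 30.6% and 31.8%. Pld6, the mitochondrial nuclease Zucchini, went from 147 and 137 CPM in early spermatocyte-like cells of mouse 1 and mouse 2 to 78.2 and 82.9 CPM in pachytene-like cells and 19.5 and 17.6 CPM in the Ssxb-led cluster, and both steps passed (log2 fold changes -0.55 and -2.06, edgeR adjusted p 0.00520 and 3.12e-10). Tdrkh, a Tudor protein at the mitochondrial surface, went from 136 and 119 CPM to 28.8 and 35.7 CPM (edgeR adjusted p 9.95e-09). Henmt1, which methylates the 3′ ends of piRNAs, was the gene that rose at the first step, from 31.1 and 31.8 to 46.5 and 44.4 CPM (log2 fold change 0.78, edgeR adjusted p 0.00305). Asz1, a partner of the PIWI proteins at mitochondria, fell at the first step and rose at the next, with 53.1 and 55.3, then 15.99 and 14.6, then 27.3 and 28.3 CPM. Its means per cell were 0.520 UMIs in pachytene-like cells and 0.570 in the Ssxb-led cluster.

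Of 4 PIWI proteins and partners, 3 were tested, with 0 higher and 2 lower at the first step, beside 25.5% and 24.5% of all rows, and 1 higher and 2 lower at the next, beside 31.8% and 30.6%. Fkbp6, a co-chaperone of piRNA loading, went from 168 and 149 CPM in early spermatocyte-like cells to 30.9 and 35.0 CPM in pachytene-like cells (a 3.99-fold decrease, edgeR adjusted p 7.61e-10). Gtsf1, a zinc finger protein that aids cleavage by PIWI proteins, was at 644 and 636 CPM in pachytene-like cells, at 944 and 967 CPM in the Ssxb-led cluster and at 1303 and 1234 CPM in round spermatid-like cells of mouse 1 and mouse 2. Both rises passed (log2 fold changes 0.64 and 0.65, edgeR adjusted p 0.000391 and 0.000468), and both kept their direction with library size alone (0.58 and 0.41). Mean UMIs of Gtsf1 per cell did not rise at the former step, with 21.7, 19.6 and 29.2 over the same clusters. Of the other Tudor domain genes, Stk31, with a kinase-like domain, fell at the first 2 steps (520 and 453, then 112 and 110, then 21.5 and 18.8 CPM), while Rnf17, which restrains piRNA amplification in meiotic cells, fell from 304 and 259 to 95.4 and 81.4 CPM and then rose to 139 and 133 CPM (edgeR adjusted p 0.000305).

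Mybl1, which encodes A-MYB, the transcription factor that switches on pachytene piRNA loci, was at 78.8 and 114 CPM in early spermatocyte-like cells, 45.5 and 76.1 CPM in pachytene-like cells and 9.39 and 9.12 CPM in the Ssxb-led cluster. The last of these steps passed (log2 fold change -2.64, edgeR adjusted p 1.25e-08). The first did not in the main comparison (-0.46, adjusted p 0.115), and it did with the mouse as a block (edgeR adjusted p 0.00528) and with library size alone (-0.71, edgeR adjusted p 0.0208). Prmt5, the enzyme that methylates PIWI arginines, went from 71.5 and 49.6 to 28.4 and 31.4 and to 4.61 and 5.16 CPM, and both steps passed (edgeR adjusted p 0.00642 and 3.50e-09). Wdr77, the other of 2 listed genes for arginine methylation, fell at the first step (log2 fold change -1.01, edgeR adjusted p 0.00855). It rose at the next (0.77, edgeR adjusted p 0.0179), where its mean per cell was 0.402 UMIs before and 0.400 after. Of these 2 genes, 0 were higher and 2 lower at the first step, beside 25.5% and 24.5% of all rows. At the next 1 was higher and 1 lower, beside 31.8% and 30.6%.

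Of 4 genes for silencing transposons in the nucleus, 1 was higher and 1 lower in pachytene-like than in early spermatocyte-like cells, beside 25.5% and 24.5% of all rows. In the Ssxb-led cluster 2 were higher and 0 lower than in pachytene-like cells, beside 31.8% and 30.6%. Tex15, a partner of MIWI2 in silencing, was at 3.73 and 2.82 CPM in pachytene-like cells, at 67.9 and 91.2 CPM in the Ssxb-led cluster and at 83.7 and 81.7 CPM in round spermatid-like cells of mouse 1 and mouse 2. The rise to the Ssxb-led cluster was 4.63 on the log2 scale (SE 0.23, edgeR adjusted p 7.69e-14). Dnmt3l, a cofactor of DNA methylation, was at 2.30 and 3.76, then 20.1 and 28.9, then 45.7 and 42.9 CPM over the same clusters (log2 fold changes 3.12 and 1.08, edgeR adjusted p 1.74e-10 and 6.14e-05). Spocd1, another partner of MIWI2, had 0 UMIs in early spermatocyte-like cells and 137 in pachytene-like cells, which was at least 8.97-fold higher by the limit of 3 counts over the group. Morc1, a chromatin ATPase of transposon silencing, fell from 11.0 and 13.2 to 1.24 and 0.671 CPM at the same step (edgeR adjusted p 1.04e-06).

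**Figure D4:**
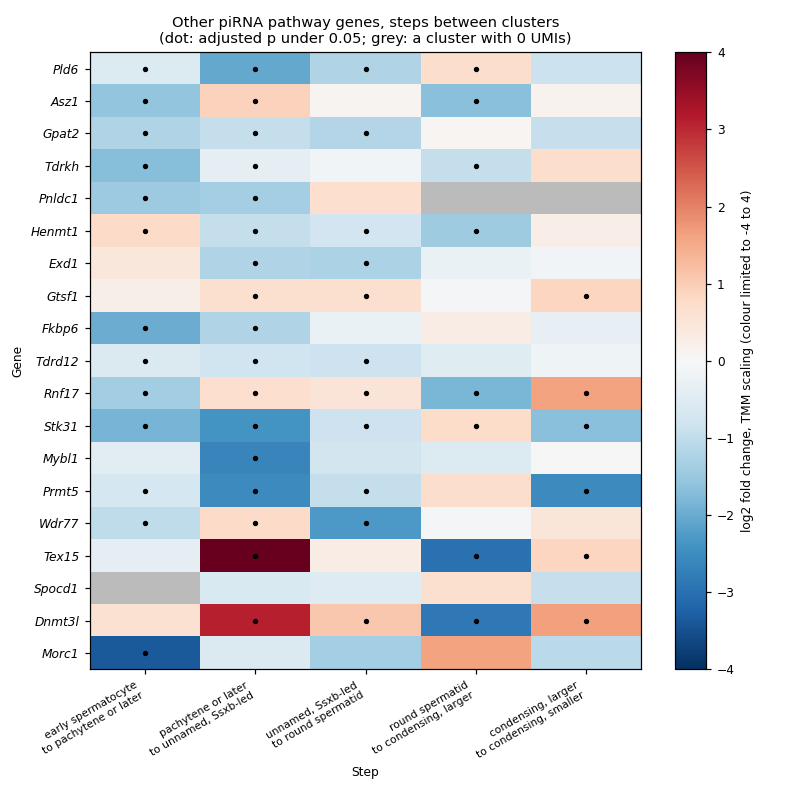
Log2 fold changes with TMM scaling of 19 other pathway genes (rows) at the 5 steps between consecutive clusters (columns). The cluster later in the cell ordering is set over the one before it, with red for higher and blue for lower. Dots mark an adjusted p under 0.05 (edgeR), and grey cells have a cluster with 0 UMIs. The genes Tex15 and Dnmt3l rose by 4.63 and 3.12 from pachytene-like cells to the Ssxb-led cluster, where Stk31, Prmt5, Mybl1 and Pld6 fell.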

How the data were processed

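RNA of testis cells from 2 mice was measured with 10x Chromium 3′ v2 chemistry. Reads were demultiplexed and counted with bcl2fastq 2.17.1.14 and Cell Ranger 2.0.0, per the labels, against a repeat-masked GRCm38 with RepBase sequences and Ensembl 89 genes. The deposited values are raw UMI counts of both mice in 1 matrix, for which the authors downsampled the reads of the deeper library and kept called cells. The mouse of a cell was read from the number that ends its barcode, and 0 barcodes were shared. The order of the libraries in the matrix is not given in the sources used here, so which animal is called mouse 1 is an assumption, on which no test depends.

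The 10 genes, the 21 other pathway genes and the cluster markers were chosen with earlier results of these data known. All 10 genes are named, with the 3 most like each and pathway genes with a call. K-means (K = 9, random seed 42) on 10 principal components of 27759 rows gave the clusters. A cluster was named where at least 3 markers reached 1.5 times the CPM of all cells. Germ cells were ordered by diffusion pseudotime. The 25 cells called doublets were kept.

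UMIs were summed per cluster and mouse, and clusters with 20 cells in each mouse entered edgeR's quasi-likelihood test (TMM, filterByExpr, Benjamini-Hochberg adjustment per comparison over 14143 rows). Over 15 pairs of clusters, the deviations of the sums of 1 animal correlated at 0.0237 to 0.476, so the mouse was also fitted as a block. Counts were also simulated with the same mean in every cluster, except for 200 rows changed 4-fold in the pachytene-like cluster. At the first step edgeR recovered 171 of the 200 among 12805 rows, with 6 false calls, and DESeq2 recovered 159. In the real first step 50.1% of rows were called. Such a state was not simulated, so the false calls do not measure the error rate of the real step. Tests were run with edgeR 4.0.16 and DESeq2 1.42.0 in R 4.3.3, and clustering with scanpy 1.11.5 and scikit-learn 1.9.0 in Python 3.11.15 (matplotlib 3.10.9, pandas 2.3.3, scipy 1.17.1, numpy 2.4.6). Alternatives were the block, DESeq2, other scalings, no filter, a 2-fold minimum, other clusterings, no repeat rows, no doublets, thinned cells and each mouse alone. Gene positions came from GENCODE on GRCm38 and promoters from RefSeq. Reads and the cell types assigned by the authors were not used here.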

Additional observations from a re-analysis of the deposited data

How the results depend on the processing

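Several calls in condensing cells rest on few UMIs. Each cluster had 2 animals, and counting intervals cover counting error only. With each mouse alone, without a test, values kept the direction of each call, though 3 calls in condensing cells moved by more than 1.5 times, and the levels in the highest cluster of each gene lay within 1 SD of the mean, as any 2 values do.

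With library size alone, log2 fold changes turned for Mael from early spermatocyte-like to pachytene-like cells (-0.068), for Mael, Piwil1 and Piwil2 from round spermatid-like to larger condensing cells (-1.02, -0.43 and -0.42) and for Piwil1 and Tdrd1 from larger to smaller condensing cells (0.011 and 0.56). Members lower from the Ssxb-led to round spermatid-like cells became 6, from round to larger condensing cells members were 0 higher and 6 lower and other pathway genes 0 higher and 12 lower, and from larger to smaller condensing cells members were 4 higher and 0 lower and other pathway genes 1 lower. From the Ssxb-led to round spermatid-like cells the median of all rows moved as well, from -0.06 with TMM to -0.30 with library size alone. With DESeq2, and likewise with its size factors in edgeR, Mael turned at the first step (-0.095 in both), from the Ssxb-led to round spermatid-like cells (0.022 in both) and from larger to smaller condensing cells (-0.11 in both), as did Tdrd9 at the last (-0.11 in both). Members lower from the Ssxb-led to round spermatid-like cells were 1 and members higher from round to larger condensing cells 5 in both, and in DESeq2 members lower from larger to smaller condensing cells were 4 and other pathway genes higher at the first step 1.

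Without the filter, Ddx4 turned at the first step (0.22), Mael from round to larger condensing cells (-0.27) and Mael and Tdrd9 from larger to smaller ones (-0.022 and -0.027), and from round to larger condensing cells 1 member and 0 other pathway genes were higher. Without doublets Ddx4 turned at the first step (0.14). With clusters from the 2000 most variable genes, Mael, Tdrd1 and Tdrd9 turned from larger to smaller condensing cells (-0.0087, 0.16 and -0.24), and Mael rose at the first step (0.89, edgeR adjusted p 0.000144). In thinned cells Mov10l1 turned from larger to smaller condensing cells (0.080), where members were 1 higher and 0 lower and other pathway genes 1 lower, 1 member and 0 other pathway genes were higher from round to larger condensing cells, other pathway genes were 1 higher at the first step and 4 lower from the Ssxb-led to round spermatid-like cells, and early cluster levels were 305 CPM for Tdrd1 and 104 CPM for Tdrd9. With a 2-fold minimum, members higher were 0 from pachytene-like to Ssxb-led and 1 from larger to smaller condensing cells, members lower were 0 from Ssxb-led to round spermatid-like cells, and other pathway genes were 1, 2, 1, 0 and 2 higher over the 5 steps, with 7 and 4 lower at the second and the third. Other pathway genes higher from round to larger condensing cells were 1 with K = 10, with members in the clustering, without doublets and with the replicate block. The cause of these differences was not tested. Except for library size alone at the last 2 steps, shares of all rows called under these settings are not given here. The counts thus show only how calls moved and are not read against all rows.

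The replicate block for the mouse gave 2 members higher from pachytene-like to Ssxb-led cells, where Ddx4 and Mael gained a call, and Mov10l1 gained one from larger to smaller condensing cells. Among other pathway genes Mybl1 gained 2 calls, Spocd1 and Tex15 gained 1 each and Pld6 lost 1 (edgeR adjusted p 0.0518). It changed no other call of these genes at the 5 steps. Over all rows, counts moved by more than 1.5 times with library size alone, with thinned cells and with the 2-fold minimum, for example to 2233 lower rows at the first step in thinned cells, against 3469.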

Other observations

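Transposon RNA, the target of the pathway, was read beside the 10 genes as a share of all UMIs. LINE-1 sequences (106 rows of the matrix) took 0.547% and 0.636% of the UMIs of early spermatocyte-like cells in mouse 1 and mouse 2, 0.327% and 0.339% in pachytene-like cells, 0.431% and 0.441% in the Ssxb-led cluster and 0.340% and 0.353% in round spermatid-like cells. The share was thus higher in the Ssxb-led cluster than in both of its neighbours in each mouse. IAP elements (28 rows) were also higher there than in both neighbours, with 0.0518% and 0.0669% in pachytene-like cells, 0.116% and 0.1248% in the Ssxb-led cluster and 0.0658% and 0.0666% in round spermatid-like cells. In early spermatocyte-like cells the IAP share was 0.0737% in mouse 1 and 0.119% in mouse 2, the latter close to the Ssxb-led share. LINE-1 took 0.0233% and 0.0228% in the larger condensing cluster and 0.199% and 0.189% in the smaller one. No test was run on these shares, and how they relate to the 10 genes was not tested.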
